A study of Mus musculus with 4 samples.

Results

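The 8 genes described here encode enzymes of heme synthesis, chosen by name: Alas1, Alas2, Alad, Uros, Urod, Cpox, Ppox and Fech. All 8 had a row among the 47561 gene symbols of the expression tables, and all 8 were among the 13148 genes that reached 1 FPKM in at least 2 libraries. FPKM are fragments per kilobase of transcript and per unit of mapped reads, so levels of different genes can be set side by side. The cells were LSK cells, bone marrow cells that carry Sca-1 and c-Kit but no marker of a mature lineage and that include the blood stem cells. They were sorted from 12-week-old C57BL/6 mice. The 2 Metrn cKO mice carried a floxed Metrn gene and LysM, a driver active in macrophages, monocytes and neutrophils. The 2 Metrn f/f mice carried the floxed gene alone and are labelled wild type. Metrn encodes Meteorin, a secreted protein. Each of the 4 libraries stands for 1 mouse, and the driver is one of myeloid cells.

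Heme is an iron-holding ring that serves in hemoglobin, in cytochromes and in enzymes such as catalase and myeloperoxidase. Its synthesis starts in mitochondria, where aminolevulinate synthase joins glycine and succinyl-CoA, passes through the cytosol, and ends in mitochondria, where ferrochelatase inserts iron. The starting enzyme is rate-limiting and has 2 forms: Alas1 is made in nearly all cells and is repressed by heme, while Alas2 is made in red cell precursors, under GATA1 and under control by iron. Of the later enzymes, Alad makes porphobilinogen, Uros closes the ring, Urod and Cpox trim its side chains, Ppox oxidises it to protoporphyrin, and Fech adds the iron.

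Promoter sequences from RefSeq (build GRCm38.p6) were found for 7 of the 8 genes, in windows of 250 bases before to 50 bases after each start. They were searched on both strands for the GATA motif AGATAA, also with T as its first letter (TGATAA), with G as its last letter (AGATAG), or with both changes (TGATAG), overlaps allowed. At least 1 of these spellings was present in 29.8% of all 32851 windows, so a match alone does not set a gene apart. The stretches upstream of Alas2 and Cpox are shown because they held a motif within 100 bases before the start, unlike the windows of Alas1, Alad, Urod and Ppox, where no motif was found. Capitals mark the motifs, which all read on the opposite strand, and each stretch ends before the first annotated exon.
Alas2, chrX:150547167-150547374, plus strand: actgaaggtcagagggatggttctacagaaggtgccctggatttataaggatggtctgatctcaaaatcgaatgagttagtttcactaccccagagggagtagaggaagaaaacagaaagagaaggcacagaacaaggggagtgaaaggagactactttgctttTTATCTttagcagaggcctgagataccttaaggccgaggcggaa
Cpox, chr16:58669958-58670207, plus strand: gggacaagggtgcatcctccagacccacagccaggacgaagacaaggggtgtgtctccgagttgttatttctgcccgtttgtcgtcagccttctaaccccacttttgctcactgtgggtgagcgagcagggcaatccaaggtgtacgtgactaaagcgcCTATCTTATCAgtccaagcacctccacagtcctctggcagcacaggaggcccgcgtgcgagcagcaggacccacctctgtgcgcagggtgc
The Alas2 motif lay 86 bases before its RefSeq start at 150547417, which lies past the end of the printed stretch. The 2 Cpox motifs, which share a base, lay 91 and 86 bases before the RefSeq start of Cpox. A further Cpox motif lay 4 bases after the start. Uros has 2 annotated starts, and only the window of the internal start held any match. A stretch of 30 bases around a match 68 bases before that start is printed because the starts of the same gene differed in this.
Uros, chr7:133702551-133702580, minus strand: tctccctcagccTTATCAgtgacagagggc
Alas2 also differed from Alas1 in its 5' untranslated region. An iron-responsive element, a hairpin with a C before a stem of 5 base pairs (G with T allowed) and the loop CAGTGN, was searched for in the annotated 5' untranslated regions of GENCODE M21. It was found in 31 of 21599 coding genes (0.144%). Among the 8 enzymes only Alas2 held it, and the element is shown with its loop in capitals.
Alas2 element, chrX:150547464-150547480, plus strand, build GRCm38: cgtcctCAGTGCagggc
A match of letters is a description of the sequence and does not show binding in these cells.

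The 4 libraries differed widely within each genotype. The sum of all FPKM was 562401 and 412955 in Metrn cKO 1 and 2, and 392717 and 671802 in Metrn f/f 1 and 2, and the 20 most abundant genes took between 8.71% and 21.9% of it. Metrn itself had 42.3 and 36.7 FPKM in Metrn cKO, against 29.3 and 66.3 FPKM in Metrn f/f, so it was not lower in each Metrn cKO mouse. Lyz2, the gene whose promoter is the LysM driver, had 2904 and 245 FPKM in Metrn cKO, against 290 and 2406 FPKM in Metrn f/f. Of 10 LSK markers 9 passed the filter. Kit, the gene of the sorted receptor c-Kit, had 25.9 and 116 FPKM in Metrn cKO, against 108 and 24.8 FPKM in Metrn f/f. Ly6a, the gene of Sca-1, had 48.4 and 38.2 FPKM in Metrn cKO, against 37.2 and 83.2 FPKM in Metrn f/f. Metrn cKO 1 and Metrn f/f 2, the libraries with little Kit, also held the most globin and neutrophil RNA. The enzymes' fold changes between genotypes are given with all mice and without Metrn f/f 2, and that of Alas2 also without Metrn cKO 1. The 11 erythroid markers, none at 0 in any library, summed to 18893 and 1974 FPKM in Metrn cKO and to 2411 and 22910 FPKM in Metrn f/f. The 9 neutrophil markers summed to 55540 and 1901 FPKM in Metrn cKO and to 2442 and 30936 FPKM in Metrn f/f, and the 11 macrophage markers to 192 and 56.8 FPKM and to 47.6 and 983 FPKM. The 9 markers of B and plasma cells summed to 4067 and 245 FPKM in Metrn cKO and to 194 and 1060 FPKM in Metrn f/f.

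The isoforms of the first enzyme behaved unlike each other across the mice. Alas2 (chromosome X, 150547375 to 150570638 of GRCm38, plus strand) had 97.2 FPKM in Metrn cKO 1 and 12.2 in Metrn cKO 2, against 18.6 in Metrn f/f 1 and 79.8 in Metrn f/f 2. Each genotype therefore held 1 high and 1 low mouse, and the genotypes overlapped fully. The gap between mice of a genotype was 7.96-fold in Metrn cKO and 4.28-fold in Metrn f/f. Alas2 stood above 94.4% of the tested genes in Metrn cKO 1 and above 53.4% in Metrn cKO 2, against 67.5% in Metrn f/f 1 and 91.3% in Metrn f/f 2. Its mean was 54.7 ± 60.1 FPKM in Metrn cKO and 49.2 ± 43.3 FPKM in Metrn f/f (SD, n = 2 each).

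Alas1 (chromosome 9, 106233455 to 106248654, minus strand) had 70.4 and 63.6 FPKM in Metrn cKO 1 and 2, against 70.1 and 43.2 FPKM in Metrn f/f 1 and 2. Its highest value was 1.63 times the lowest, or 2.78 times after rescaling each library to a sum of 1000000 (TPM). Metrn f/f 2 was its lowest library on both scales, and the other 3 lay within 70.4 and 63.6 FPKM. The mean was 66.96 ± 4.81 FPKM in Metrn cKO and 56.6 ± 19.0 FPKM in Metrn f/f (SD, n = 2 each).

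The balance between the forms followed Alas2. The ratio of Alas2 to Alas1 was 1.38 in Metrn cKO 1 and 0.192 in Metrn cKO 2, against 0.266 in Metrn f/f 1 and 1.85 in Metrn f/f 2. Alas2 thus made up 58.0% and 16.1% of the combined FPKM of both forms in Metrn cKO, and 20.99% and 64.9% in Metrn f/f. The erythroid form outweighed the general one in 1 mouse of each genotype. A ratio within a library does not depend on how the library was scaled. Exons of Apex2, a DNA repair gene, and of Mir3620 overlap 15.5% of the exonic bases of Alas2. Apex2 had between 4.03 and 6.48 FPKM in the 4 libraries.

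**Figure D1:**
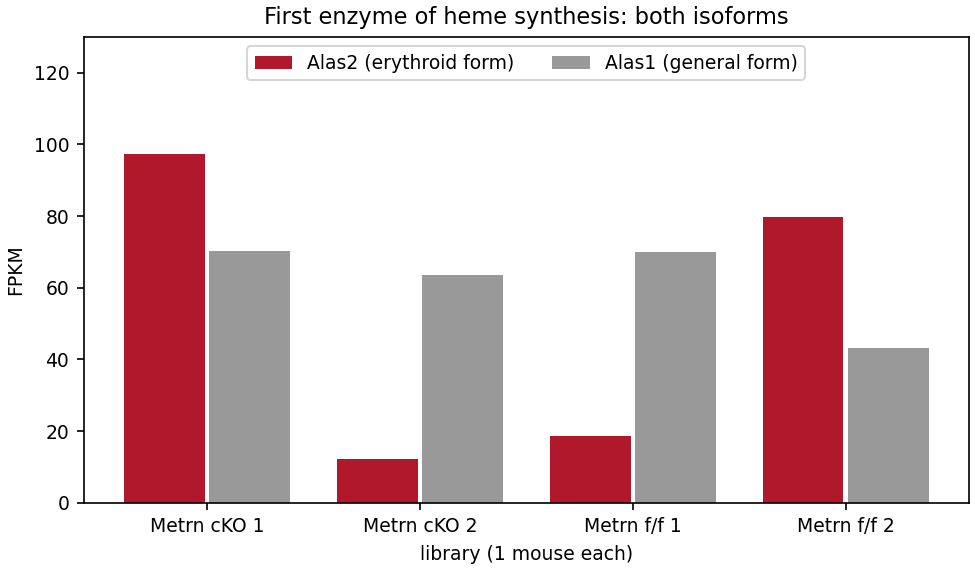
Bars give the FPKM (y axis, from 0) of Alas2 and Alas1 in each library (x axis, 1 mouse each). Alas2 exceeds Alas1 in Metrn cKO 1 (97.2 against 70.4 FPKM) and in Metrn f/f 2 (79.8 against 43.2 FPKM) and lies far below it in the other libraries.

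The 6 later enzymes had a different pattern from Alas2, with Metrn f/f 2 alone at the top of the deposited values. Alad (chromosome 4, 62509169 to 62519918, minus strand) had 15.9 and 10.1 FPKM in Metrn cKO 1 and 2, against 10.5 and 24.8 FPKM in Metrn f/f 1 and 2. It was the only later enzyme more than 1.5 times as high in Metrn cKO 1 as in Metrn cKO 2, at 1.58-fold. Uros (chromosome 7, 133686243 to 133710072, minus strand), the lowest of the 8 in every library, had 6.37 and 6.10 FPKM in Metrn cKO, against 4.62 and 14.7 FPKM in Metrn f/f. Its values in Metrn cKO were nearly equal, with a mean of 6.24 ± 0.190 FPKM, against 9.65 ± 7.12 FPKM in Metrn f/f (SD, n = 2 each).

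Urod (chromosome 4, 116989965 to 116994413, minus strand) was the most abundant of the later enzymes in every library. It had 27.5 and 29.5 FPKM in Metrn cKO 1 and 2, against 28.9 and 60.2 FPKM in Metrn f/f 1 and 2. All libraries but Metrn f/f 2 lay within a narrow range. Cpox (chromosome 16, 58670292 to 58717636, plus strand) had 12.6 and 10.3 FPKM in Metrn cKO, against 11.3 and 17.8 FPKM in Metrn f/f. The values of the genotypes overlapped here too, with Metrn f/f 1 between the Metrn cKO mice.

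Ppox (chromosome 1, 171275990 to 171281186, minus strand) varied least of the 8 in FPKM, by 1.46-fold, but by 1.69-fold in TPM, more than Cpox, Fech and Alad. It had 23.3 and 28.6 FPKM in Metrn cKO 1 and 2, against 27.6 and 34.1 FPKM in Metrn f/f 1 and 2. B4galt3, a galactosyltransferase gene that shares 17.5% of the exonic bases of Ppox, had 23.8 and 16.6 FPKM in Metrn cKO and 14.7 and 16.2 FPKM in Metrn f/f, and without strand the reads of both genes cannot be told apart there. Fech (chromosome 18, 64452914 to 64490251, minus strand) had 15.4 and 12.9 FPKM in Metrn cKO, against 12.8 and 27.7 FPKM in Metrn f/f. As with the other later enzymes, its FPKM in Metrn f/f 2 stood above the other 3 mice by more than their own spread, though for Ppox only narrowly.

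Ordered by mean FPKM over the 4 libraries, the enzymes ran from Alas1 (61.8) through Alas2 (52.0), Urod (36.5), Ppox (28.4), Fech (17.2), Alad (15.3) and Cpox (13.0) to Uros (7.94). Fech, Alad and Cpox changed places between libraries, as did Alas1 and Urod, and Alas2 was first in Metrn cKO 1 and Metrn f/f 2 but below Ppox in the other libraries. Uros came last, and Urod came before Ppox, in all 4 libraries. The 8 genes together took between 0.042% and 0.0478% of all FPKM.

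**Figure D2:**
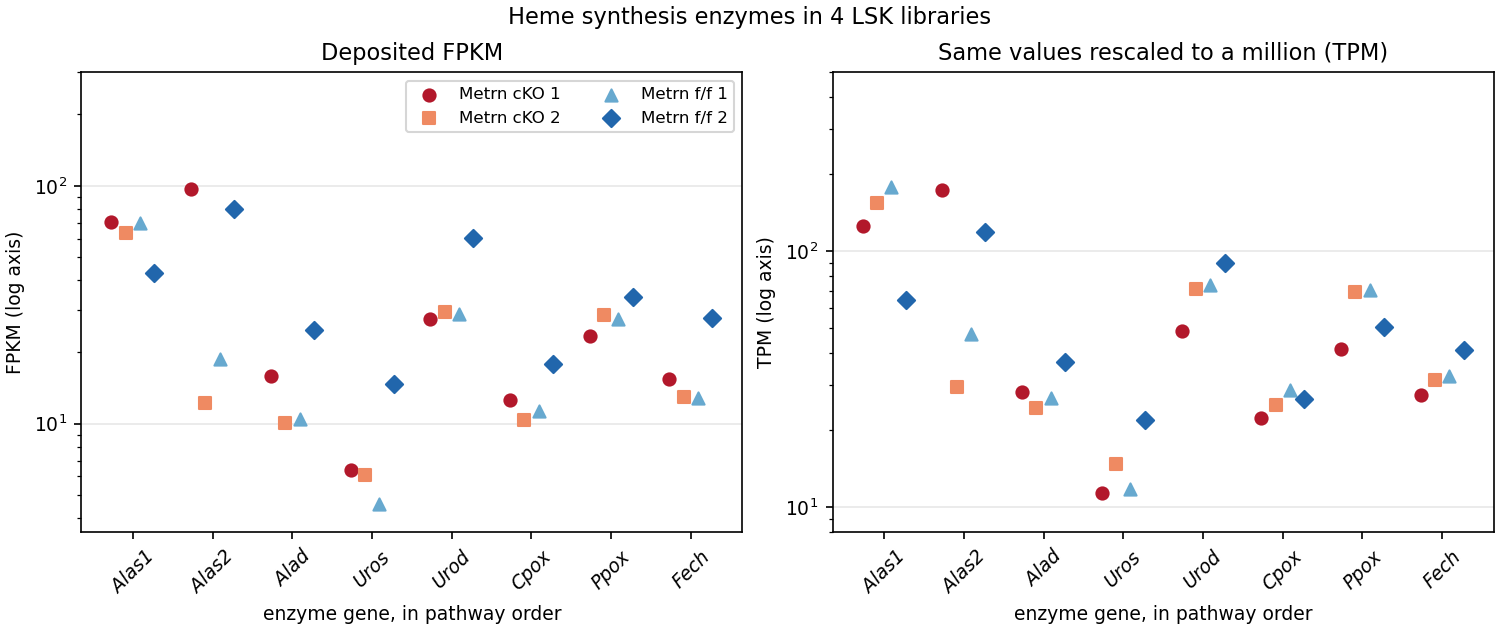
Points give each enzyme's level in each library on a log axis, as deposited FPKM (left) and after each library was rescaled to a sum of 1000000 (TPM, right). Alas2 splits into a high and a low library in each genotype in both panels, while the later enzymes peak in Metrn f/f 2 at left and, apart from Ppox, lie closer together at right.

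Within Metrn f/f, 5 of the 8 enzymes (Alas2, Alad, Uros, Urod and Fech) were at least 2-fold higher in mouse 2 than in mouse 1, as were 16.4% of all tested genes. Within Metrn cKO only Alas2 was at least 2-fold higher in mouse 1 than in mouse 2, as were 8.35% of all tested genes. The scaling of the libraries bears on the first of these counts, since the sum of FPKM was largest in Metrn f/f 2. When each library was rescaled to a sum of 1000000, as TPM, only Alas2 passed 2-fold in Metrn f/f (2.50-fold, with 5.54% of all tested genes) and in Metrn cKO (5.85-fold, with 5.78% of all tested genes). On that scale Alas1 was 0.360 times as high in Metrn f/f 2 as in Metrn f/f 1. Of all tested genes 51.3% were at least 2-fold lower in that comparison. These gaps between single mice have no replicate, so they carry no test.

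The design asks whether the enzymes in LSK cells depend on Metrn made by myeloid cells. None of the 8 was called by limma's test across all genes. At an adjusted p of 0.05, 0 were higher and 0 lower in Metrn cKO, as were 0% of all tested genes in each direction. With 2 mice per genotype, a lack of calls does not show that the enzymes are independent of Metrn. Unadjusted p-values fell under 0.05 for 39 genes, none of them an enzyme of the pathway. On the log2(FPKM + 1) scale, which slightly understates the change of low genes, the fold changes of Metrn cKO over Metrn f/f lay between -0.54 and 0.28. Alas1 was the only enzyme with a positive value, 0.28 (SE 0.42). Alas2 had -0.14 (SE 1.05), with a 95% interval from -2.67 to 2.38, so a change of several-fold in either direction was not detectable with these mice.

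Among the later enzymes Urod had the smallest unadjusted p, at 0.292 by limma (adjusted p = 1.00), with a log2 fold change of -0.54 (SE 0.47). Fech had -0.39 (SE 0.50), Uros -0.38 (SE 0.63) and Alad -0.33 (SE 0.55). Cpox had -0.29 (SE 0.46) and Ppox -0.24 (SE 0.39). The median of the 8 was -0.31, beside 0.07 for all tested genes. No interval from all 4 mice excluded 0: the upper bounds of the later enzymes ran from 0.59 for Urod to 1.13 for Uros.

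Metrn f/f 2 set the sign of most of these values. Without it the log2 fold change was -0.07 for Alas1, 0.88 for Alas2, 0.25 for Alad, 0.37 for Uros, 0.02 for Cpox and 0.14 for Fech, each opposite to the value with all mice. Urod and Ppox stayed negative, at -0.02 and -0.09. Without Metrn f/f 1 Urod had -1.06, which rests on a single Metrn f/f mouse. Without Metrn cKO 1 Alas2 had -1.59, and without Metrn cKO 2 it had 1.30. The difference of each pair of mice shows the same for Alas2 on the log2 scale: Metrn cKO 1 lay 2.32 above Metrn f/f 1 and 0.28 above Metrn f/f 2, while Metrn cKO 2 differed from them by -0.57 and -2.61.

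**Figure D3:**
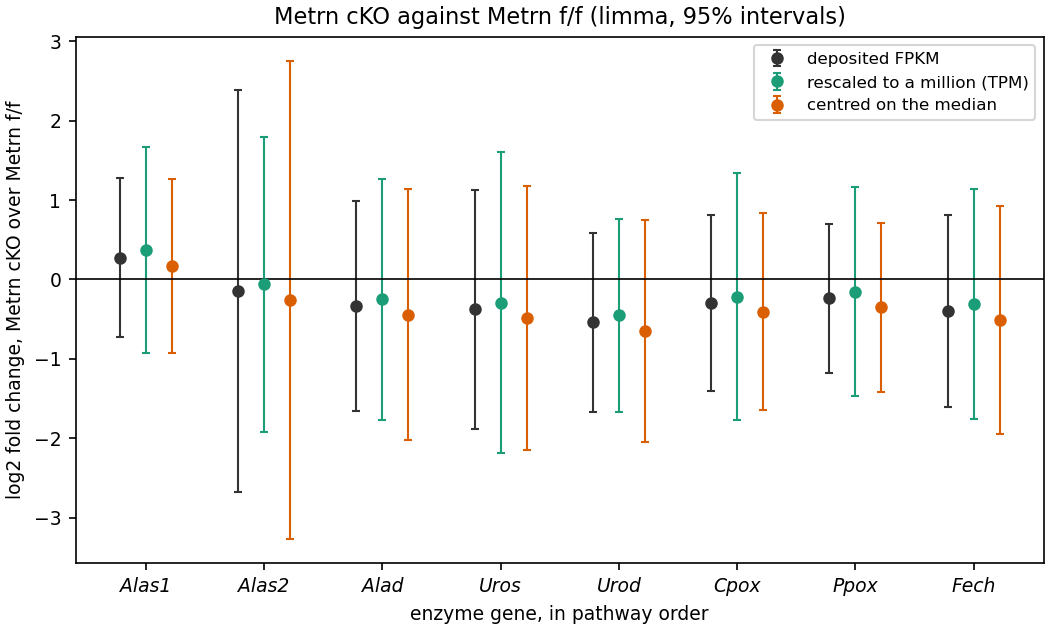
Points give the log2 fold change of Metrn cKO over Metrn f/f for each enzyme (limma) under 3 scalings of the libraries, with 95% intervals. Every interval spans 0, Alas1 lies above 0 and the other enzymes below it under all 3 scalings. Alas2 has the widest interval except after rescaling to TPM, where that of Uros is slightly wider.

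No enzyme separated the genotypes on the deposited scale: 0 of 8 lay higher in each Metrn cKO mouse than in either Metrn f/f mouse, and 0 of 8 lay lower, beside 6.31% and 5.73% of all tested genes. After rescaling to TPM 0 of 8 lay entirely higher in Metrn cKO (3.28% of all tested genes), and Urod, Cpox and Fech lay entirely lower, 3 of 8 beside 5.72% of all tested genes. Urod then had 48.8 and 71.4 TPM in Metrn cKO, against 73.5 and 89.6 TPM in Metrn f/f. Cpox had 22.4 and 25.1 TPM in Metrn cKO, against 28.7 and 26.6 TPM in Metrn f/f, and Fech had 27.5 and 31.3 TPM, against 32.5 and 41.3 TPM. None of the 3 passed limma's test on that scale. With each library centred on its median only Ppox lay entirely lower, beside 7.65% of all tested genes, so which enzymes separate the genotypes depends on the scaling.

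Alas2 moved with the globin genes, whose chains carry the heme of red cells. The 4 adult globin genes Hba-a1, Hba-a2, Hbb-bs and Hbb-bt summed to 31369 and 3198 FPKM in Metrn cKO, and to 3948 and 37409 FPKM in Metrn f/f. Alas2 came to 3.10 and 3.82 FPKM per 1000 globin FPKM in Metrn cKO, and to 4.72 and 2.13 in Metrn f/f. This quotient thus varied far less across the mice than Alas2 itself did. The alpha globin genes are near-identical copies of each other, as are the beta globin genes, so values of single globin genes are uncertain. In bulk libraries, more red cell precursors among the cells and more of these RNAs per cell cannot be told apart, and the part of such cells in the level of Alas2 was not tested.

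The red cell regulators Gata1 and Klf1 did not share this pattern. Gata1, the factor that acts on Alas2, had 3.10 and 2.55 FPKM in Metrn cKO, against 4.02 and 17.8 FPKM in Metrn f/f. Klf1, another erythroid factor, named here after its values were seen, had 5.31 and 2.28 FPKM in Metrn cKO, against 3.25 and 36.2 FPKM in Metrn f/f. Both were by far highest in Metrn f/f 2, and most of the later heme enzymes were high in that mouse alone. Alas2 and the globins were about as high in Metrn cKO 1. Klf1 was also 2.34-fold higher in Metrn cKO 1 than in Metrn cKO 2. Ahsp, the chaperone of alpha globin, stood between, with 31.2 and 7.86 FPKM in Metrn cKO and 7.54 and 306 FPKM in Metrn f/f. Of 9 erythroid regulators 0 were called, with a median log2 fold change of -0.52, and Gata1 was the 1 of them that lay entirely lower in Metrn cKO, beside 5.73% of all tested genes. The median of the regulators became -0.029 when Metrn cKO 1 was left out and -0.95 when Metrn cKO 2 was. That median became -0.65 when Metrn f/f 1 was left out and -0.089 when Metrn f/f 2 was. Of the 9, 4 were at least 2-fold higher in Metrn f/f 2 than in Metrn f/f 1, as were 16.4% of all tested genes. Tal1 and Zfpm1, named after their values were seen, went the other way. Tal1 had 9.75 and 26.9 FPKM in Metrn cKO, against 24.7 and 15.7 FPKM in Metrn f/f. Zfpm1 had 16.3 and 27.1 FPKM, against 27.4 and 20.1 FPKM. The more abundant Lmo2, Nfe2 and Ldb1, which blood progenitors also express, each differed by less than 1.5-fold between the Metrn f/f mice, whereas Lmo2 had 148 FPKM in Metrn cKO 1 and 389 FPKM in Metrn cKO 2.

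Likeness to Alas2 was also measured as the root mean square difference between centred log2 profiles over the 4 libraries, among 8933 genes with a mean of at least 4 FPKM. The 5 nearest genes were Plbd1 (0.098), Slfn2 (0.111), AB124611 (0.114), C5ar1 (0.128) and Slamf6 (0.130). C5ar1 is a complement receptor of myeloid cells, so on this scale the genes nearest to Alas2 included a gene of another lineage. With 0.1 rather than 1 added to the FPKM, C5ar1 and Slamf6 left the 5 nearest, as they did after rescaling to TPM. The 4 globin genes lay at 0.421 to 0.481, at ranks 86 to 114. Of the other enzymes Alad was nearest, at 0.871 and rank 635, and Alas1 farthest, at 1.39 and rank 4627. These are descriptions over 4 mice, in which neutrophil and globin RNA were high in the same 2 libraries.

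**Figure D4:**
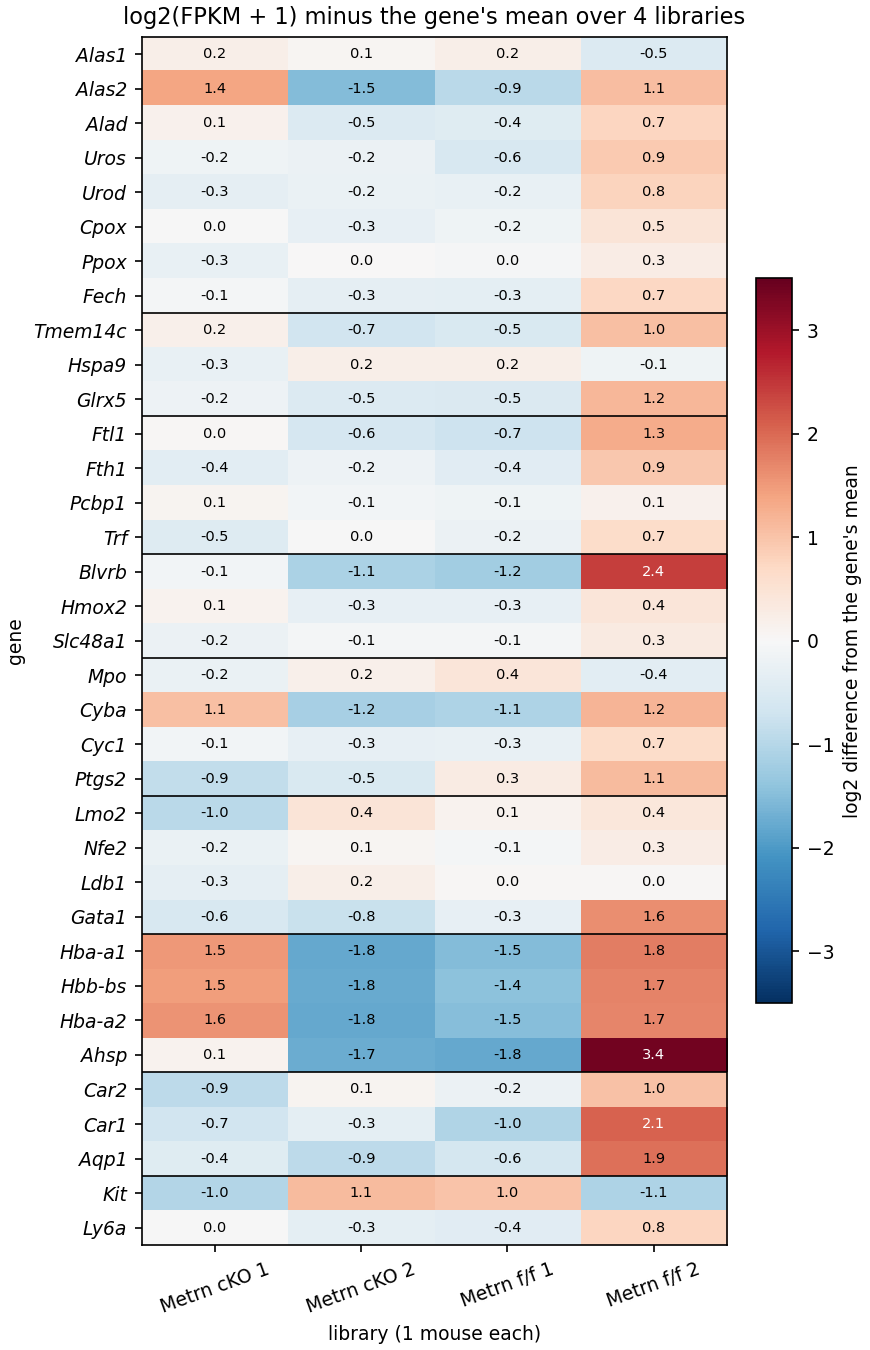
Colours and numbers give log2(FPKM + 1) minus the gene's mean over the 4 libraries (columns), for the 8 enzymes (top block), named genes of the further lists below it, and the sort markers Kit and Ly6a. Alas2 shares the 2 high columns of the globins, while most later enzymes, Gata1 and Blvrb are high in Metrn f/f 2 alone.

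Genes that supply the pathway were set beside the enzymes. Of 20 genes of iron uptake, mitochondrial transport and precursor supply 0 were called, and the median log2 fold change was -0.19, with -0.38 without Metrn f/f 1 and -0.10 without Metrn f/f 2. Tmem14c, which carries the porphyrin precursor of heme into the mitochondrial matrix, had 107 and 59.3 FPKM in Metrn cKO, against 65.0 and 198 FPKM in Metrn f/f. Glrx5, of iron-sulfur cluster assembly, had 62.4 and 50.6 FPKM in Metrn cKO, against 50.03 and 159 FPKM in Metrn f/f. Both peaked in Metrn f/f 2 as Fech and Urod did. The mitochondrial chaperone Hspa9 had 78.3 and 108 FPKM in Metrn cKO, against 109 and 84.9 FPKM in Metrn f/f. Slc11a2, Abcb10, Abcb6 and Sucla2 lay entirely lower in Metrn cKO, 4 of 20 beside 5.73% of all tested genes, and none lay entirely higher, beside 6.31%. After rescaling to TPM the entirely lower genes were 3 others (Slc25a38, Slc25a39 and Glrx5), beside 5.72% of all tested genes, and all of these but Glrx5 are named after their values were seen.

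Genes of iron storage and of heme breakdown were called in neither direction, 0 of 10 and 0 of 12. Their median log2 fold changes were 0.05 and -0.15. With each library left out in turn, the median for iron storage lay between -0.024 (Metrn cKO 1 left out) and 0.094 (Metrn f/f 1 left out). That for heme breakdown lay between -0.36 (Metrn cKO 2 left out) and 0.00026 (Metrn f/f 2 left out). The ferritin chains Fth1 and Ftl1 had 510 and 574 FPKM and 1211 and 790 FPKM in Metrn cKO, against 499 and 1255 FPKM and 712 and 2907 FPKM in Metrn f/f. The iron chaperone Pcbp1 varied little, with 237 and 208 FPKM in Metrn cKO, against 202 and 245 FPKM in Metrn f/f, and Trf, which encodes transferrin, had 35.7 and 49.2 FPKM, against 42.7 and 77.9 FPKM. Blvrb, a biliverdin reductase abundant in red cells, had 27.1 and 13.1 FPKM in Metrn cKO, against 12.1 and 160 FPKM in Metrn f/f. Hmox2, the constitutive heme oxygenase, had 56.4 and 42.6 FPKM in Metrn cKO, against 42.6 and 70.5 FPKM in Metrn f/f, and the heme transporter Slc48a1 had 44.2 and 48.8 FPKM, against 48.8 and 63.9 FPKM. The summed level of the macrophage markers, cells that recycle heme iron, was also highest in Metrn f/f 2, and its part in these levels was not tested.

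Red cell membrane and enzyme genes, in which 12 of 15 passed the filter, were called in neither direction, with a median log2 fold change of -0.94. Leaving out Metrn cKO 1 gave a median of -1.52 and leaving out Metrn cKO 2 one of -0.55. Leaving out Metrn f/f 1 gave -2.39, and leaving out Metrn f/f 2 gave 0.17. All 12 were highest in Metrn f/f 2, under both scalings, as were 6 of the 8 heme enzymes in FPKM and 4 of the 8 in TPM. Car2 and Car1, carbonic anhydrases, had 79.3 and 160.5 FPKM and 16.8 and 21.5 FPKM in Metrn cKO, against 131 and 309 FPKM and 12.8 and 117 FPKM in Metrn f/f. The water channel gene Aqp1 had 8.50 and 5.78 FPKM in Metrn cKO, against 7.30 and 47.5 FPKM in Metrn f/f.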

How the data were processed

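Total RNA of sorted LSK cells was made into Illumina libraries, per the labels' protocols. The authors deposited 1 table per library, and its values were taken as FPKM from their range, since per the file headers only the library is named. Tools listed in the submitters' processing notes, without their roles, are HISAT2 2.1, featureCounts 1.6.4, cutadapt 1.16.5, bcl2fastq 2.19 and DESeq2 2.11.40.6, with build mm10. Strand setting and annotation: not given in the sources used here. Read totals are unknown: among values under 0.5 FPKM, no ratio between 2 libraries was shared by more than 7 genes, so no step of 1 read was found and no interval for counting error is given.

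Genes that reached 1 FPKM in 2 or more libraries were tested with limma 3.58.1 in R 4.3.3 on log2(FPKM + 1), with an intensity trend, 2-sided, Benjamini-Hochberg adjustment over 13148 genes and a threshold of 0.05. The planned test for counts did not apply to these values. The code was checked on simulated data. Alternatives were a pseudocount of 0.1, no filter, rescaling to TPM, median centring, each library left out, and a replicate block. The deposited values were otherwise not rescaled. Coordinates are from GENCODE M21 (GRCm38, called mm10), and promoters from RefSeq. Protein sequences were not used here. p-values measure the spread between single mice. The members and lists were chosen with earlier results of these data known. The further genes named are, in each list, the 3 with the highest mean and the 1 with the smallest p, and the 5 genes most like Alas2, leaving out predicted and small RNA names.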

Additional observations from a re-analysis of the deposited data

How the results depend on the processing

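Under a pseudocount of 0.1, no filter on low values, rescaling to TPM, median centring and the replicate block, all 40 log2 fold changes of the 8 enzymes kept their direction and none was called. The median of the 8 was -0.23 after rescaling to TPM and -0.42 after median centring. The median of all tested genes was 0.15 and -0.04 under these scalings, against 0.07. Enzymes that lay entirely lower in Metrn cKO numbered 3 after rescaling to TPM and 1 after median centring, against 0. With each library left out in turn this number was 0 to 6, the number entirely higher was 0 to 2, and the median of the 8 was -0.92 to 0.076, the extremes coming without Metrn f/f 1 and without Metrn f/f 2. With an arm of 1 mouse, 17.6% to 46.2% of all tested genes lay entirely higher and 17.2% to 31.1% entirely lower. The log2 fold changes then ranged from -1.59 to 1.30 for Alas2, -0.067 to 0.62 for Alas1, -0.91 to 0.25 for Alad, -1.12 to 0.37 for Uros, -0.60 to 0.015 for Cpox, -1.06 to -0.02 for Urod, -0.39 to -0.09 for Ppox and -0.92 to 0.14 for Fech, and the cause was not tested. Over all genes 0 to 32 were called higher (32 without Metrn cKO 2) and 0 to 5 lower (5 without Metrn cKO 1), no enzyme among them. The replicate block called 3 genes higher and 1 lower. Same-numbered mice deviated in opposite directions (r = -0.71 across 13148 genes, which are not independent). This rests on a single difference within each genotype, so it does not settle whether the numbers pair the mice. A crossed pairing, chosen after seeing the data, called 37 genes higher and 65 lower. Of the 5 genes most like Alas2, 3 (Plbd1, Slfn2 and AB124611) were shared under each of a pseudocount of 0.1 and rescaling to TPM. The unknown read depth limits what can be said of low values such as those of Uros.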

Other observations

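Proteins that use heme, other than globins, were not called in either direction, 0 of 16, with a median log2 fold change of -0.07. The median was -0.34 without Metrn cKO 1, -0.27 without Metrn f/f 1 and 0.061 without Metrn f/f 2. Mpo, the myeloperoxidase of granulocyte precursors, had 1502 and 1997 FPKM in Metrn cKO, against 2376 and 1352 FPKM in Metrn f/f, so its lower libraries were those with high Alas2. Cyba, which encodes the smaller subunit of the heme-holding cytochrome of the phagocyte oxidase, went the other way, with 488 and 105 FPKM in Metrn cKO, against 110 and 539 FPKM in Metrn f/f. Cyc1, the cytochrome of respiratory complex III, had 77.8 and 67.3 FPKM in Metrn cKO, against 68.5 and 131 FPKM in Metrn f/f. Ptgs2, the inducible cyclooxygenase, had 0.445 and 0.816 FPKM in Metrn cKO, against 2.188 and 4.67 FPKM in Metrn f/f (limma, log2 fold change -1.39, SE 0.56, unadjusted p = 0.0454, adjusted p = 1.00), so it did not pass. Ptgs2 and Tbxas1, the thromboxane synthase gene, were the 2 members of this list that lay entirely lower in Metrn cKO, beside 5.73% of all tested genes, and none lay entirely higher, beside 6.31%. After rescaling to TPM these were Ptgs2, Cyc1 and Cyb5a, 3 of 16 beside 5.72% of all tested genes.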
